A study of Mus musculus with 12 samples.

Results

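The fibroblast growth factor (FGF) genes described here are 31 genes chosen by name: 20 FGF ligand genes, 5 receptor genes and 6 genes of the Sprouty and Spred inhibitors. The 20 include 3 intracellular homologous factors, which are FGFs by sequence but act inside the cell. The genes are 31 of the 21755 protein-coding genes of chromosomes 1 to 19 and X in the GENCODE annotation of the mouse genome GRCm38. Each was scored by whether a site of H3K27me3 (histone H3 trimethylated at lysine 27) touched the window within 1 kb of any of its transcription start sites (TSSs), and by the share of its gene body that lay inside sites. All 31 symbols were found in the annotation. The X-linked genes of these families, Fgf13, Fgf16 and Spry3, are not among the 31 and were not scored.

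The sites came from chromatin immunoprecipitation and sequencing of iMEF cells, immortalized mouse embryo fibroblasts. In all groups a floxed exon of the endogenous Ash2l had been deleted by Cre-ER, and the cells lived on human ASH2L fused at its N-terminus to FKBP12F36V and delivered by a lentivirus. ASH2L is a core subunit of the KMT2 enzymes, which place methyl groups on lysine 4 of histone H3, and the compound dTAG directs the fusion protein to degradation. The 8 H3K27me3 libraries were 2 each of untreated cells and of cells given dTAG for 16 h, 24 h or 48 h, and 2 input libraries each came from untreated cells and from cells given dTAG for 48 h. The study worked mainly with a single selected clone of these cells, which limits them as a model of fibroblasts in general.

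The values used here are 1 pooled list of 101389 sites over all samples, each with a chromosome, a start and an end and no value for any library. A second list by the study, of sites with changed H3K27me3 after dTAG, was not used here. From the pooled list alone the depth reached in each library is not known, no site has a replicate error, and no gene could be compared between untreated and treated cells. For the depth the study gives a planned minimum of reads per sample. All counts below describe the pooled list, without a test. The median site was 676 bp wide, and the widths ran from 200 bp to 228257 bp. By the same measure, which reads chromatin and not expression, 26.9% of all protein-coding genes, 0 of 10 fibroblast marker genes and 3 of 8 markers of other cell types carried a site at a TSS. The 3 were Cd3e of T cells and Epcam and Cdh1 of epithelia, and the other 5 had none. The count for other cell types is near that of all genes, so these markers do not settle the label.

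H3K27me3 is placed by Polycomb repressive complex 2 and is known to cover the promoters of developmental genes in cells where these are silent. FGF ligands are for the most part secreted factors that bind receptor tyrosine kinases on the cell surface together with heparan sulphate or a Klotho protein, and the receptors signal through Ras and the MAP kinases. Sprouty and Spred proteins are induced by or recruited to this pathway and dampen it. Fibroblasts are known both as a source of some FGFs, such as Fgf7 and Fgf2, and as cells that respond to FGFs through Fgfr1.

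A site lay within 1 kb of a TSS in 21 of the 31 genes, or 67.7%, where 26.9% of all protein-coding genes did. The roles differed in their counts. Of the ligand genes 16 of 20 had a site, or 13 of 17 without the intracellular factors, and of the receptor genes 3 of 5. Of the inhibitor genes 2 of 6 had a site, both of these Sprouty genes. That is 33.3%, near the share of all protein-coding genes. In 17 of the 31 genes a site lay over a TSS itself, against 21.4% of all protein-coding genes. In all 17 this included the TSS of the principal transcript, the lowest-numbered one that the annotation tags as such, against 17.7%. In 14 genes the whole window around the principal TSS was inside sites, against 11.1%. The other 4 genes, Fgf6, Fgf23, Fgfrl1 and Spry4, had a site beside a TSS and none over it. With the requirement that the centre of a site lie in the window, 13 genes were counted, against 18.5% of all protein-coding genes. The genes lost were Fgf3, Fgf4, Fgf8 and Fgf15, which lie wholly inside wide sites, and Fgf6, Fgf23, Fgfr4 and Spry4.

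**Figure D1:**
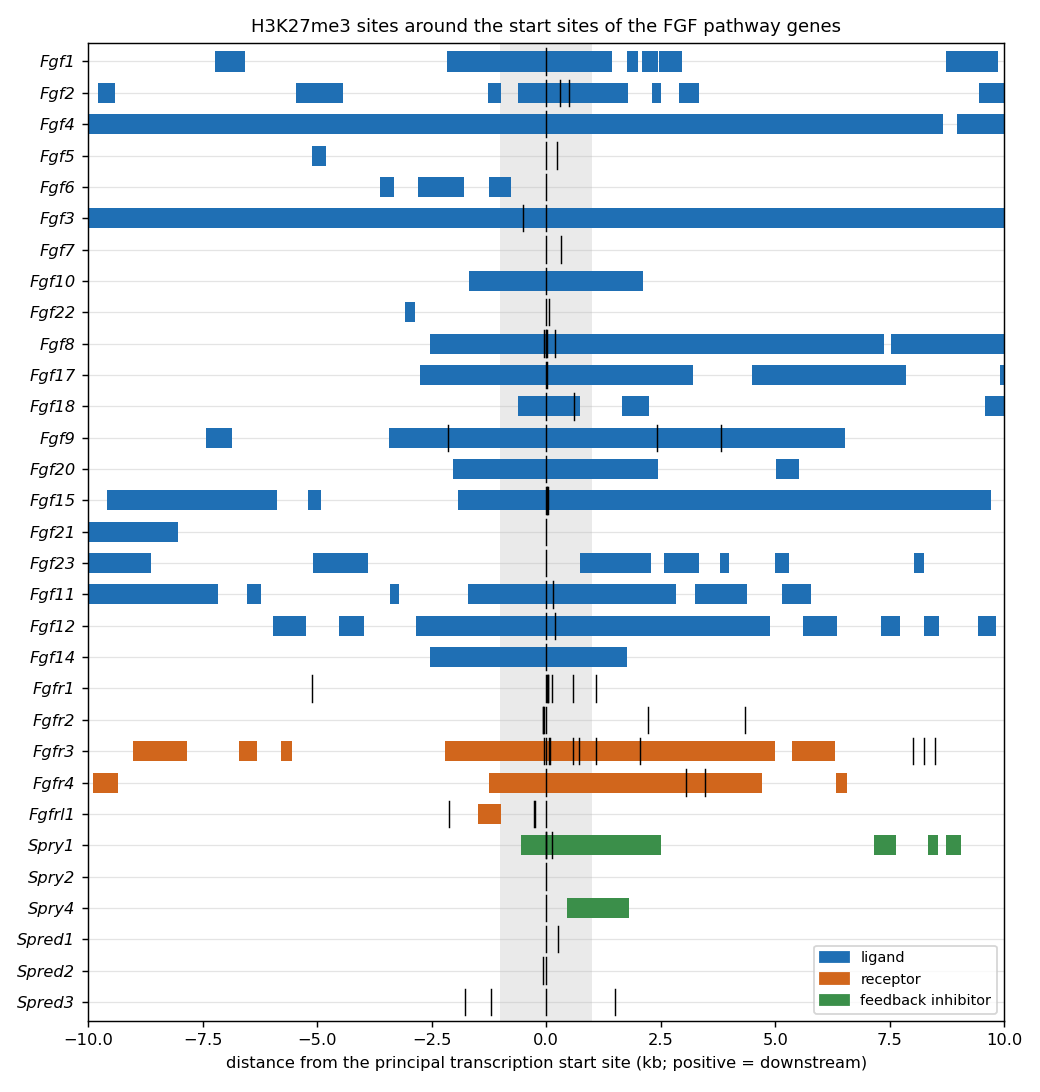
Map of the H3K27me3 sites (coloured blocks) within 10 kb of the principal TSS of each of the 31 genes, in kb along the direction of transcription, with black ticks for all annotated TSSs and grey shading for 1 kb on each side. Blocks lie over the principal TSS in 17 genes, and Fgf7, Fgfr1, Fgfr2, Spry2, Spred1, Spred2 and Spred3 show none in the drawn range.

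The promoter sequences of 6 genes are printed because they include genes with nearly equal numbers of CpG dinucleotides, which many Polycomb targets are rich in, of which some lay in a site and some did not. They run from 250 bases before to 50 bases after the start in RefSeq (GRCm38.p6), 5′ to 3′, with each CpG in capitals. Fgf4 and Fgf5 belong to the same subfamily and hold 28 and 29 CpGs, and the Fgf4 promoter was wholly inside a site while the Fgf5 promoter was outside all sites. Spry1 and Spry2 likewise hold 29 and 28 CpGs, and Spry1 was inside a site and Spry2 outside. Spred1 has 40 CpGs, the most of the printed promoters, and was outside all sites. Fgf11 has 5, the fewest of any FGF promoter in the table that lay inside a site. The windows are chr7:144861136-144861435 for Fgf4, chr5:98253934-98254233 for Fgf5, chr3:37639697-37639996 for Spry1 and chr2:117120821-117121120 for Spred1 on the plus strand, and chr14:105896770-105897069 for Spry2 and chr11:69802231-69802530 for Fgf11 on the minus strand.

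Fgf4: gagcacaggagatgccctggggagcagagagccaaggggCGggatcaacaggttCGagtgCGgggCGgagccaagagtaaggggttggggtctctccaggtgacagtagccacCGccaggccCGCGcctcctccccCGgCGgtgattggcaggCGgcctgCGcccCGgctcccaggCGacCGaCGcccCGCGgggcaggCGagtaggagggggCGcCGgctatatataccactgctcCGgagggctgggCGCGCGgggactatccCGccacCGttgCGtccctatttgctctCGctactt

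Fgf5: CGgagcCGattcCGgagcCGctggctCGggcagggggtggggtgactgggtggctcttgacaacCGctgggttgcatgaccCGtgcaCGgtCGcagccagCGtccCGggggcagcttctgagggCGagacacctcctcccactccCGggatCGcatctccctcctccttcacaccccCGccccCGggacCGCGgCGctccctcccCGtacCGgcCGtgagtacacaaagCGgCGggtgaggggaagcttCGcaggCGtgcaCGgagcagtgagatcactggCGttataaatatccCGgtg

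Spry1: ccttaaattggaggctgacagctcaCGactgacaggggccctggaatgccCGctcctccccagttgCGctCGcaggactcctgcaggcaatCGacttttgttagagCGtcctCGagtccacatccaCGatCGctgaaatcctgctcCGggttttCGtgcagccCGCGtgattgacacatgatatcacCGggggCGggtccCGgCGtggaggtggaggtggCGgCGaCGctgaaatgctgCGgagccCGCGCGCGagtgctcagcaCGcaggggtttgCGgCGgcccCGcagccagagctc

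Spry2: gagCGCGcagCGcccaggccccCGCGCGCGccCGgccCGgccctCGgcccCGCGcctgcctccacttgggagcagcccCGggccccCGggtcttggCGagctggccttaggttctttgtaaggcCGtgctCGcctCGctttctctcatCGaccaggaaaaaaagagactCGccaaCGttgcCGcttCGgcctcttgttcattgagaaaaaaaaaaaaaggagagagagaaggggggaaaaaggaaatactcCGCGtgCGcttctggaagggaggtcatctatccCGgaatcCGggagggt

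Spred1: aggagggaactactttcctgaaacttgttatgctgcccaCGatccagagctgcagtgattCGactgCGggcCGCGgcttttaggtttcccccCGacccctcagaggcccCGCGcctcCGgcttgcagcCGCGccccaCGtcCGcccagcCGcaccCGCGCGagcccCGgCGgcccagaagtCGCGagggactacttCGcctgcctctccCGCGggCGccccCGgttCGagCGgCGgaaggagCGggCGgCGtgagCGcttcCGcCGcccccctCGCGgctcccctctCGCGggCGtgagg

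Fgf11: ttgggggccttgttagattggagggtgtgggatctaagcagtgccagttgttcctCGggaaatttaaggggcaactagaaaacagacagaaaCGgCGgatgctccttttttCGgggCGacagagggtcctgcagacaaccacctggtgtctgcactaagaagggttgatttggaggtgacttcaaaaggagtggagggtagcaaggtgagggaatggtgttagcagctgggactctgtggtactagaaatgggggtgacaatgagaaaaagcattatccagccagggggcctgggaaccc

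The letters CG, which read the same on both strands, occur at least once in 94.6% of the 32851 promoters of this table, with a median of 7 per promoter. A promoter was listed for 24 of the 31 genes. Fgf1, Fgf8, Fgf15, Fgf17, Fgf20, Fgfr1 and Spry4 were not listed. Some genes have several promoters. Over the 16 promoters touched by a site the median was 23 CpGs, against 14 over the 12 promoters outside sites. The 16 include several promoters each of Fgf12 and Fgfr3. The 12 include those of Fgf6, Fgf23 and Fgfrl1, genes that did have a site within 1 kb of a TSS. The most CpGs were in Fgf18, with 47 and inside a site. The next was Spred1, and Fgfrl1 followed with 37 and outside. A CpG island within 1 kb of a TSS was found in 24 of the 31 genes, and 16 of these 24 had a site there, against 26.7% of all protein-coding genes with an island. Of the 7 genes without an island 5 had a site, namely Fgf1, Fgf6, Fgf10, Fgf23 and Fgf14, against 27.2% of all protein-coding genes without one. The highest ratio of observed to expected CpGs near a TSS had a median of 0.631 over the 21 genes with a site, with a range of 0.136 to 1.06, and of 0.671 over the 10 genes without, with a range of 0.162 to 1.01. The ranges overlapped almost completely.

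**Figure D2:**
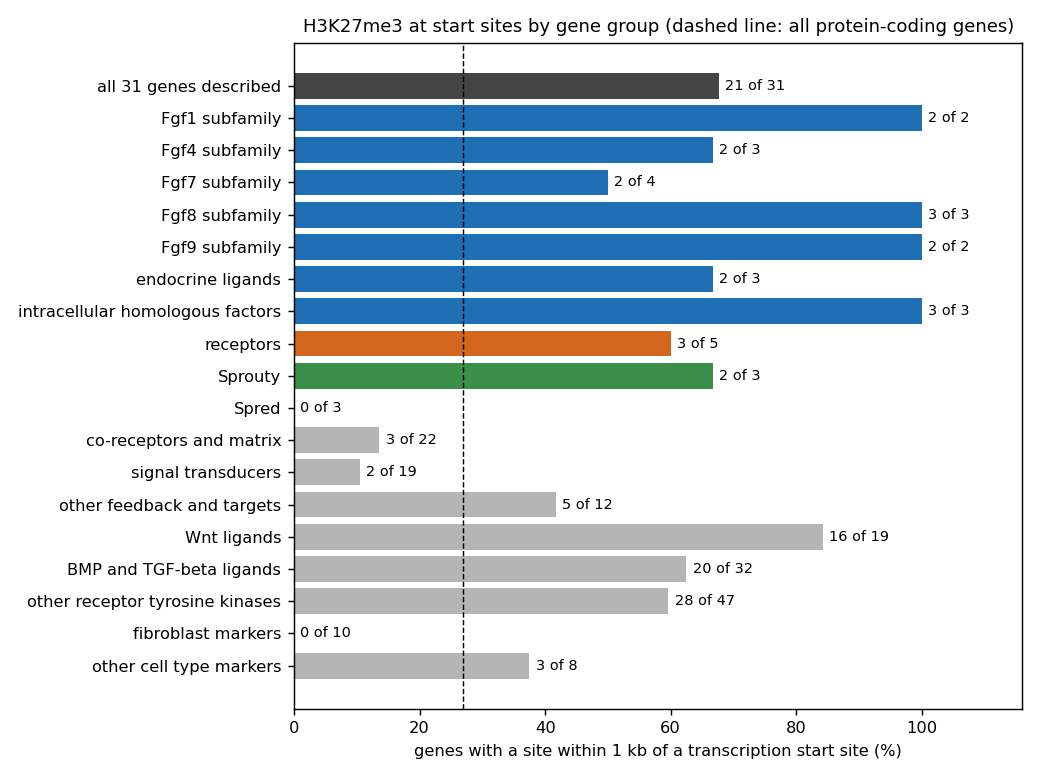
Share of genes with a site within 1 kb of a TSS (percent, bars from 0) for the FGF subfamilies, receptors, Sprouty and Spred genes (coloured) and for the gene lists set beside them (grey), with counts at the bars. The dashed line is the 26.9% of all protein-coding genes, and the FGF ligand subfamilies lie between 50% and 100%.

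Among the ligands, both genes of the Fgf1 subfamily had a site. Fgf1, or acidic FGF, binds all FGF receptors and leaves the cell without a signal peptide. A site of 3599 bp (chr18:38917328-38920926) lay over the TSS of its principal transcript, which is 1 of 9 annotated TSSs. The other 8 had no site within 1 kb. Fgf2, or basic FGF, is a mitogen of fibroblasts that lacks a signal peptide as well. It had 4 promoter sites of 292 bp, 2412 bp, 1200 bp and 286 bp, and sites touched the windows of 4 of its 7 TSSs. The 2412-bp site (chr3:37347731-37350142) lay over the principal TSS and held 34.2% of the coding bases of the gene. The Fgf1 gene body was covered to 12.9% by 16 sites, of which 13 were narrower than 1000 bp, and the Fgf2 body to 11.5% by 7 sites. Both genes thus carried separate sites in their introns beside the site over the principal TSS. These were up to 1124 bp wide in Fgf1 and up to 2096 bp wide in Fgf2.

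The Fgf4 subfamily was split. Fgf4, which acts in the early embryo and the limb bud, was wholly inside a site of 60096 bp. Fgf5, which ends the growth phase of the hair follicle, had no site in its body, and the nearest lay 4806 bp upstream and was 302 bp wide. Fgf6, which is expressed in skeletal muscle, had a site of 485 bp that ended 759 bp upstream of its single TSS and another of 957 bp in untranslated exon sequence near its 3′ end. The latter alone gave its 7.59% of body coverage, and no coding base was covered. Fgf6 and Fgf23, whose site began 747 bp downstream of the TSS, were the ligand genes just inside the limit of 1 kb. Fgf22, with a site of 222 bp at 2862 bp upstream, and Fgf5 were the genes just outside it.

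In the Fgf7 subfamily Fgf3 and Fgf10 had a site and Fgf7 and Fgf22 did not. Fgf3, which acts in the forming inner ear, shared the 60096-bp site with Fgf4. Fgf10, the mesenchymal factor needed for lung and limb outgrowth, had a site of 3781 bp (chr13:118713024-118716804) over the TSS of its principal transcript. It held 52.3% of the coding bases, although it covered 3.09% of the 122325-bp gene. The upstream TSSs of the other Fgf10 transcripts were 43200 bp and 43233 bp away from it and had none. Fgf7, the keratinocyte growth factor that mesenchymal cells secrete, was 112760 bp from the nearest site, and no base of the 100 kb around its TSS was in a site. Fgf22, which helps to organize synapses, had no site in its body.

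All 3 genes of the Fgf8 subfamily and both scored genes of the Fgf9 subfamily, which leave out the X-linked Fgf16, had a site over the TSS. Fgf8, which patterns the midbrain and the limb, lay wholly inside a site of 9896 bp (chr19:45735506-45745401). Fgf17, a related factor of the developing brain, had a site of 5965 bp over its start and a site of 3356 bp over its 3′ end, and 78.9% of its body was covered. Fgf18, a factor of bone, cartilage and lung, had a narrower site of 1350 bp over the TSS and sites of 589 bp and 3044 bp in introns, and 14.6% of its body was covered. Fgf9, known for its part in testis and lung development, had a site of 9947 bp, and Fgf20, which acts in the inner ear and the kidney, had a site of 4464 bp. Their bodies were covered to 20.5% and 17%. The Fgf20 body is 29166 bp long because of a second transcript with an upstream start, and over the 7788 bp of its principal transcript the coverage was 37.7%. These sites reached from 3433 bp upstream to 6513 bp downstream of the principal TSS in Fgf9, and from 2023 bp upstream to 2440 bp downstream in Fgf20.

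The endocrine ligands travel in blood and need a Klotho protein at their target cell. Fgf15, the intestinal hormone that represses bile acid synthesis, lay wholly inside a site of 11633 bp (chr7:144894611-144906243). Fgf23, the bone hormone that lowers phosphate, had 5 short sites of 200 bp to 1547 bp in its body, which covered 35.6% of it, and none over the TSS. Fgf21, the liver hormone of fasting, had none, and its nearest site lay 8031 bp upstream in Izumo1. Of their co-receptors, Kl, which serves Fgf23, had a promoter site of 7604 bp, and Klb, which serves Fgf15 and Fgf21, had a promoter site of 2541 bp. Fgfr4, the receptor through which Fgf15 acts in the liver, had a promoter site of 5970 bp.

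The intracellular homologous factors Fgf11, Fgf12 and Fgf14 are not secreted and bind voltage-gated sodium channels of neurons and heart muscle. All 3 had a site over the principal TSS, and the X-linked Fgf13 was not scored. In Fgf11, a 5790-bp gene, a promoter site of 4546 bp and sites of 1134 bp and 630 bp together covered 79.5% of the body. Fgf12 spans 592971 bp and had sites of 7727 bp, 3382 bp and 2963 bp over 3 separate promoters, and 4 of its 6 TSSs lay inside them. A total of 56 sites touched its body, 47 of them under 1000 bp, and covered 7.12%. Fgf14 is longer, at 699221 bp, yet only 2 sites touched it. These were a site of 4291 bp over the principal TSS and a site of 1367 bp that began 688 bp downstream of the far upstream TSS, which left 0.809% of the body covered. These long genes therefore differed in the number of sites inside their introns while both had sites at their starts.

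**Figure D3:**
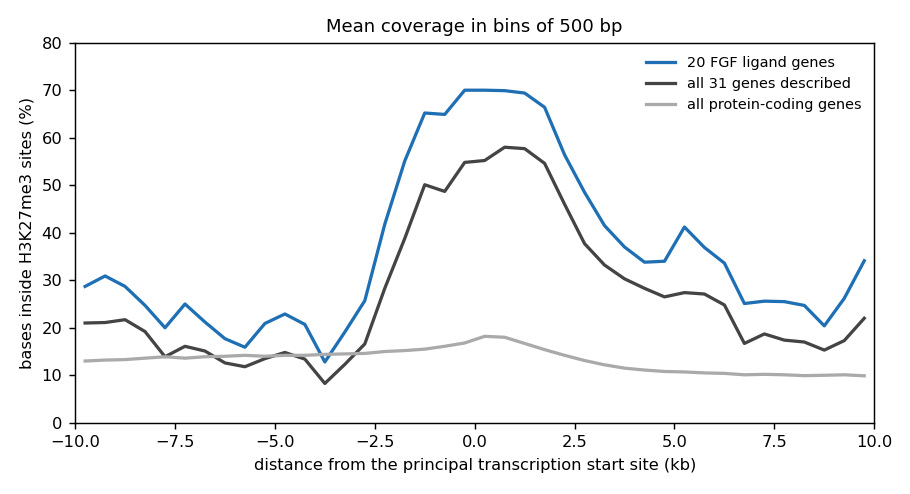
Mean share of bases inside H3K27me3 sites (percent) in bins of 500 bp from 10 kb upstream to 10 kb downstream of the principal TSS, for the 20 FGF ligand genes, all 31 genes and all protein-coding genes. The ligand line is at 70% in both bins next to the TSS, where all protein-coding genes are at 16.8% and 18.2%.

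Around the principal TSS the coverage of the FGF genes was highest just downstream of the start. Over the 31 genes 58% of the bases between 500 bp and 1000 bp downstream lay in sites, against 18% over all protein-coding genes. In the ligands the share was 70% in the 500 bp upstream and 70% in the 500 bp downstream of the TSS. It was at 12.8% between 4000 bp and 3500 bp upstream, where all protein-coding genes had 14.4%. In the bins on either side, 4500 bp to 4000 bp and 3500 bp to 3000 bp upstream, it was 20.7% and 19.1%, against 14.2% and 14.5%. At 4000 bp to 4500 bp downstream the ligand share was still 33.8%, against 11.1%.

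The Fgf3, Fgf4 and Fgf15 genes lie next to each other on chromosome 7, all on the plus strand, and the widest single site at an FGF gene lies over Fgf3 and Fgf4. This 60096-bp site (chr7:144809957-144870052) began 28638 bp upstream of the principal TSS of Fgf3 and ended beyond Fgf4. Only 24 of the 101389 sites, this one included, were at least as wide, or 0.0237%. Between Fgf4 and Fgf15 are 31287 bp, of which 64.6% were in sites, and Fgf15 lay in the separate 11633-bp site. Joined over gaps of less than 10 kb, 13 sites formed a stretch of 126650 bp (chr7:144782585-144909234), and 87.8% of it was inside sites. The stretch held no other protein-coding gene. Ano1, a chloride channel gene and the neighbour before Fgf3, had a promoter site of 1259 bp and 2.53% of its body covered. LTO1, the neighbour after Fgf15, had none, and its nearest site was 5866 bp from a TSS. In the 100 kb around the principal TSS, 90.2% of bases were in sites for Fgf3, 84.8% for Fgf4 and 50.4% for Fgf15. The highest of the other FGF genes was Fgf18 at 35.7%, and the median was 9.82% over the 31 genes and 3.37% over all protein-coding genes.

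**Figure D4:**
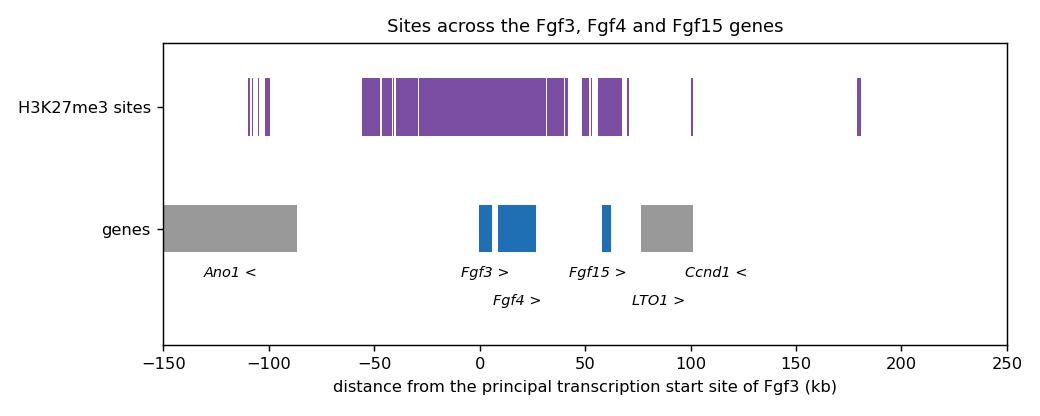
Map of chromosome 7 around Fgf3, with H3K27me3 sites (upper blocks) and protein-coding genes (lower blocks, FGF genes in blue, arrowheads for the strand) by distance from the principal TSS of Fgf3 in kb. The sites lie close together from upstream of Fgf3 to just beyond Fgf15, in a stretch of 126650 bp that is covered to 87.8%.

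Other neighbouring FGF genes showed no such common site. Fgf6 and Fgf23 are 44714 bp apart on chromosome 6, and 11.1% of the bases between them were in 6 sites. Fgf2 and Spry1 are 229838 bp apart on chromosome 3, with 0.906% in sites, and Spata5 between them had no promoter site. Spry4 and Fgf1 are 237257 bp apart on chromosome 18, with 15.6% of the bases between them in 38 sites. In these pairs each gene had its own promoter site. Among the genes that flank the pairs, Tigar beside Fgf23, Gm5148 beside Spry1 and Arhgap26 beside Fgf1 had a promoter site, of 764 bp, 2697 bp and 6612 bp. D6Wsu163e, Bbs12 and Ndfip1 had none.

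The receptors fell into separate groups. Fgfr1, the main FGF receptor of mesenchymal cells, had no site in its body. The nearest lay 28172 bp from the closest of its 18 TSSs and 33277 bp from the principal TSS. Fgfr2, whose splice forms serve epithelial and mesenchymal cells, likewise had none at any of its 14 TSSs. For Fgfr2 the nearest lay 28201 bp from the closest TSS and 49286 bp from the principal TSS. Its annotated body is 2960900 bp long because of 1 transcript that starts far upstream of the others, and 18.4% of that span was in 337 sites. In the span of its principal transcript, 102483 bp, the coverage was 0%. Fgfr3, a receptor that restrains cartilage growth, had a site of 7198 bp (chr5:33719514-33726711) over 8 of its 14 TSSs, and 38.8% of its body was covered. Fgfr4 had a site of 5970 bp (chr13:55151391-55157360) over all 3 TSSs, and 30.8% of its body was covered. Fgfrl1, a receptor without a kinase domain, had a site of 517 bp in an intron, 624 bp from the nearest TSS, which covered 3.55% of the body. It lay 980 bp upstream of the principal TSS, and the coverage of the principal transcript was 0%.

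Of the inhibitors, Spry1 had the widest coverage. Spry1 is an inhibitor of FGF signalling known from kidney development. Its site of 3047 bp (chr3:37639416-37642462) reached from 542 bp upstream to 2504 bp downstream of the TSS and covered 54.1% of the body but none of the coding bases. Spry4 had a site of 1372 bp (chr18:38599596-38600967) which began 448 bp downstream of its TSS, lay in an intron and covered 9.04% of the body. Spry2, in contrast, was 593384 bp from the nearest site, the longest distance of all 31 genes. Spred1, Spred2 and Spred3, which bind Ras-pathway proteins and block Raf activation, were 78821 bp, 35755 bp and 13707 bp from the nearest site. All 3 Spred genes and the 3 Sprouty genes scored here had a CpG island.

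**Figure D5:**
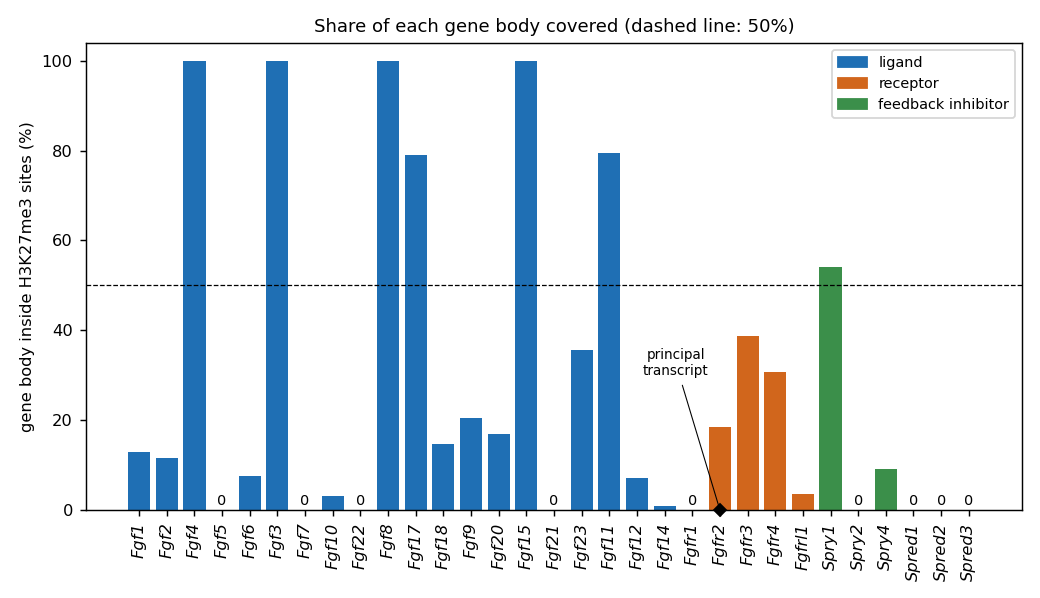
Share of each gene body inside H3K27me3 sites (percent, bars from 0) for the 31 genes, coloured by role, with the dashed line at 50%. Fgf3, Fgf4, Fgf8 and Fgf15 are at 100%, and the diamond marks the 0% of the principal Fgfr2 transcript under its bar of 18.4%.

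Over the gene bodies, 4 genes were wholly inside sites (Fgf3, Fgf4, Fgf8 and Fgf15), 3 were covered from 50% up to below 100% (Fgf17, Fgf11 and Spry1), 15 were covered by less than 50%, and 9 had no base in a site. At least 50% of the body was thus covered in 7 of the 31 genes, against 10.1% of all protein-coding genes. Any base was covered in 22, or 71%, against 30.6%. Of the 7 genes covered to at least 50%, all but Fgf4 are between 4423 bp and 6354 bp long. The median length of the 21 genes with a promoter site is 15395 bp. Fgf3, Fgf4 and Fgf15 also lie in the same stretch of sites. The median coverage was 11.5% over the 31 genes and 0% over all protein-coding genes. Among genes with a promoter site the order was the other way round, with 20.5% over the 21 FGF genes and 29.3% over all 5848 such genes. The widest promoter site had a median width of 4464 bp in the 21 genes, between 485 bp and 60096 bp, and of 3978 bp in all such genes. Coding bases lay in sites in 16 of the 31 genes, against 23.7% of all protein-coding genes.

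The rest of the pathway was scored from lists of genes by role. Of 22 genes of co-receptors and heparan sulphate matrix, 3 had a promoter site, namely Kl, Klb and Sulf2, the last with 596 bp. Of 19 genes that carry the signal inside the cell, 2 had one, Grb2 with 4520 bp and Plcg1 with 383 bp. Both of these sites lay beside the gene and covered 0% of its body. Of 12 other feedback and target genes 5 had one, the widest being those of Dusp4, a MAP kinase phosphatase, with 2529 bp, of Il17rd, an FGF receptor antagonist, with 1684 bp and of Etv4, an ETS factor induced by FGFs, with 1078 bp. The first 2 of these lists were below the 26.9% of all protein-coding genes, at 13.6% and 10.5%, and the last was at 41.7%. The ligand genes were at 80%.

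Ligand genes of other pathways were set beside those of the FGFs. A promoter site was present in 16 of 19 Wnt genes, or 84.2%, and in 20 of 32 genes of BMPs, GDFs, activins and TGF-beta, or 62.5%, against 26.9% of all protein-coding genes. At least 50% of the body was covered in 8 of 19 Wnt genes, in 6 of 20 FGF ligand genes and in 8 of 32 of the BMP and TGF-beta group, against 10.1% of all protein-coding genes. The widest promoter sites were those of Wnt3a with 61757 bp, Wnt7a with 50566 bp and Wnt9b with 29491 bp, beside the 60096 bp at Fgf3 and Fgf4. Of 47 other receptor tyrosine kinase genes 28 had a promoter site, or 59.6%, against 26.9% of all protein-coding genes. The FGF receptors were at 60%. This share counts Fgfrl1, which lacks a kinase domain and had a 517-bp site 980 bp from the principal TSS. None of these differences between lists was tested, and lists of 5 or 6 genes change by a large share with a single gene.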

How the data were processed

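H3K27me3 was measured by ChIP-seq in 8 libraries of iMEF cells, with 4 input libraries. By their methods, the authors used Trim Galore for trimming, BWA for alignment to mm10 (GRCm38.p6, GENCODE release M25), SAMtools for filtering, Picard to merge replicates and MACS for broad peaks. The authors also used deepTools and DESeq2, as their methods state and per the labels. Tool versions, the cutoffs of peak calling and the rule that joined peaks of different samples are not given in the sources used here. The deposited list used here holds the chromosome, start and end of each site, with no count, signal or fold value. Starts were read as counted from 0, since the smallest width is then 200 bp, and are printed counted from 1. There were 0 unused columns with values of single samples.

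Sites were set against protein-coding genes of GENCODE M21 on GRCm38 with Python 3.11.15, numpy 2.4.6 and numba 0.67.0. A site counted for a gene if at least 1 of its bases was 1 kb or less from an annotated TSS. The gene body was the span of the gene. CpG islands were segments of at least 200 bp scored 17 for a CpG and -1 for other bases, with a GC content of 50% or more and an observed to expected CpG ratio of 0.6 or more. The interval code was tested on simulated data. A search with minimap2 2.31 at 95% identity found no FGF gene repeated by 50% or more in the 74 patch sequences. Promoters came from RefSeq. All 31 genes are named, with genes whose TSS shares a site with theirs, the genes that flank neighbouring FGF genes within 300 kb, and at most 3 genes of each other list. Of the markers of other cell types, 1 is not reported here and was left out of the count. The members and lists were chosen with earlier results of these data known. No test was possible from this list, because it gives no library a value of its own. The separate list of changed sites holds the study's own comparisons and was not used here.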

Additional observations from a re-analysis of the deposited data

How the results depend on the processing

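No paired analysis was possible because the list used here has no column for any sample, and for the same reason no replicate could be left out. With the centre of the site required in the window, the count of genes with a promoter site moved from 21 to 13 (18.5% of all protein-coding genes), that of ligands from 16 to 10 and that of inhibitors from 2 to 1. With the TSS itself required inside a site, an alternative chosen after seeing the data, the inhibitors moved to 1 (21.4%). Under the other alternatives for the promoter (windows of 500 bp and 3 kb, TSSs of protein-coding transcripts or of curated RefSeq mRNAs, sites of at least 1000 bp, merging, at least 200 bp covered) the count for all 31 genes was between 18 and 22, and the share of all protein-coding genes between 22.4% and 33.5%. The 500-bp window lost Fgf6, Fgf23 and Fgfrl1 (24.7% of all protein-coding genes), and the 3-kb window gained Fgf22 (33.5%). The median body coverage was between 7.92% and 14.6%, and 6 to 8 genes had at least 50% of the body covered, against 9.01% to 12.7% of all protein-coding genes. Curated RefSeq TSSs and the span of the principal transcript were added after seeing the data. The depth reached in each library is not known from the list, so a gene without a site may carry H3K27me3 that was not called. The list also pools untreated and treated cells, so a listed site need not be present in untreated cells. The study saw raised H3K27me3 at a few sites from 16 h of dTAG on, most of them at promoters.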
